A study of Rattus norvegicus with 56 samples.

Results

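The microRNAs described here are 10 mature products of the imprinted Dlk1-Dio3 region of the rat genome that lie before its large miR-379 to miR-410 cluster: miR-540-3p, miR-431, miR-433-3p, miR-127-3p, miR-434-5p, miR-434-3p, miR-136-5p, miR-136-3p, miR-1188-5p and miR-370-3p. They were taken by name from the deposited count tables. All 10 were listed in each tissue, among 661 microRNAs listed in myocardium, 523 in amniotic fluid and 518 in maternal serum. Small RNA was sequenced from Sprague-Dawley rats on embryonic day 19. NC dams had received distilled water and DMO dams dimethadione, a teratogen that causes heart defects, both by mouth. Fetuses of DMO dams formed the VSD group when they had a ventricular septal defect without malformed major vessels, and the non-VSD group when the septum was intact. Each group held 7 samples, and maternal serum was sampled without a non-VSD group. The non-VSD fetuses share DMO exposure with the VSD group. Which samples came from the same dam or litter is not given in the sources used here, so the p-values measure only the spread between these samples.

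The Dlk1-Dio3 region is imprinted: the protein-coding genes Dlk1, Rtl1 and Dio3 are read from the paternal chromosome, and the noncoding RNAs with their microRNAs from the maternal one. Several of these microRNAs are cut from the transcript that runs antisense to Rtl1, a retrotransposon-derived gene needed for the fetal capillaries of the placenta. They match Rtl1 mRNA perfectly and can direct its cleavage. The region as a whole is active in the placenta, embryo and fetal muscle and is largely silent in most adult tissues apart from brain. A microRNA hairpin gives a 5p and a 3p strand (its arms). One arm is usually retained, and which of them dominates can differ between tissues.

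The members come from 8 hairpins that span 33.1 kb on the plus strand of chromosome 6 in RefSeq's GRCr8 assembly. For miR-540 the span of its mature arms stands for the hairpin, which was missing from the reference used. By RefSeq's gene coordinates, 5 of these hairpins, those of miR-431, miR-433, miR-127, miR-434 and miR-136, lie inside Rtl1 within 4.97 kb. The hairpin of miR-540 is the first of the group, that of miR-1188 begins 26.7 kb after it and that of miR-370 is the last. The cluster that begins with miR-379 lies 189 kb further on. RefSeq holds a mature sequence for 9 of the 10 members, all but miR-136-5p, and their 9 seeds (bases 2 to 8, which pair with target mRNAs) all differ. The build used for counting is not given in the sources used here. The sequences below are those of the microRNAs on which the group comparisons turn, 5′ to 3′, with the seed in capitals.
miR-127-3p: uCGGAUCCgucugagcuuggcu
miR-136-3p: cAUCAUCGucucaaaugagucu
miR-434-5p: aGCUCGACucaugguuugaacca
miR-434-3p: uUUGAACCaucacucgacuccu
miR-433-3p: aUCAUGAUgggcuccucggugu
miR-540-3p: aGGUCAGAggucgauccugggc
miR-1188-5p: uGGUGUGAgguugggccagga
miR-370-3p: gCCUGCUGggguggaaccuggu
In GRCr8, miR-127-3p lies at chr6:134328510-134328531, miR-434-5p at chr6:134330413-134330435, miR-434-3p at chr6:134330451-134330472 and miR-136-3p at chr6:134331383-134331404, all on the plus strand and inside Rtl1. Outside it, miR-540-3p lies at chr6:134321475-134321496, miR-1188-5p at chr6:134348163-134348183 and miR-370-3p at chr6:134354538-134354559.

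Library totals ran from 1694811 to 9371130 counts in myocardium, from 78188 to 331787 in amniotic fluid and from 147609 to 581350 in maternal serum. In the smallest library of each tissue a count of 0 allows up to 1.77, 38.4 and 20.3 CPM (counts scaled to the library total), a limit that covers counting error only. The heart and skeletal muscle markers miR-1-3p, miR-133a-3p, miR-133b-3p, miR-206-3p, miR-208a-3p, miR-208b-3p and miR-499-5p were present in every myocardium group. Their summed level stood apart in 3 myocardium samples, NC 2 (4231 CPM), VSD 1 (5455 CPM) and VSD 4 (7561 CPM), against 19675 to 99097 CPM in the other samples. Results that rest on these samples are also given without them. Of these, NC 2 and VSD 1 also had the highest summed level of 8 epithelial microRNAs in their groups (14235 and 15251 CPM, against medians of 1366 and 3265 CPM). Amniotic fluid held far more of the epithelial list (group medians 74187 to 115192 CPM), and in it VSD 4 stood apart with 280473 CPM of muscle markers, mostly miR-206-3p. In maternal serum the red blood cell microRNA miR-486 was the most abundant marker listed here (medians 86922 and 81230 CPM).

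All 10 microRNAs were far higher in amniotic fluid than in maternal serum apart from miR-1188-5p, and their profile differed between the tissues. In NC samples, with counts divided by the library total, the 10 summed to 39522, 62858 and 104208 CPM in amniotic fluid (lowest, median and highest of 7), to 2496, 7380 and 21274 CPM in myocardium and to 393, 991 and 2052 CPM in maternal serum. Myocardium RNA came from paraffin-embedded tissue, and the RNA of both fluids from frozen supernatant. Each tissue was prepared with another RNA kit, and amniotic fluid also with another library kit and sequencer, so tissue and method cannot be told apart. With NC samples compared by exact two-sided permutation tests, 9 of the 10 members were higher in amniotic fluid than in serum without overlap between the samples, where 39.8% of the 246 microRNAs tested were. In myocardium against serum 5 of 9 tested members (miR-127-3p, miR-434-5p, miR-136-5p, miR-136-3p and miR-370-3p) were higher without overlap, where 40.2% of 373 were. miR-1188-5p had too few counts for this test and lay lower in myocardium, at 0.268 to 6.30 CPM against 16.6 to 48.2 CPM in serum. Of the 373 tested, 67 were lower in myocardium without overlap. In amniotic fluid against myocardium 5 of 10 (miR-540-3p, miR-431, miR-433-3p, miR-434-3p and miR-136-5p) were higher without overlap, where 23.3% of 382 were, and 3 members were when TMM factors over both tissues replaced the library totals. The remaining 5 differed by 0.75 to 4.68 on the log2(CPM + 1) scale, where the median over all microRNAs tested was -0.47.

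**Figure D1:**
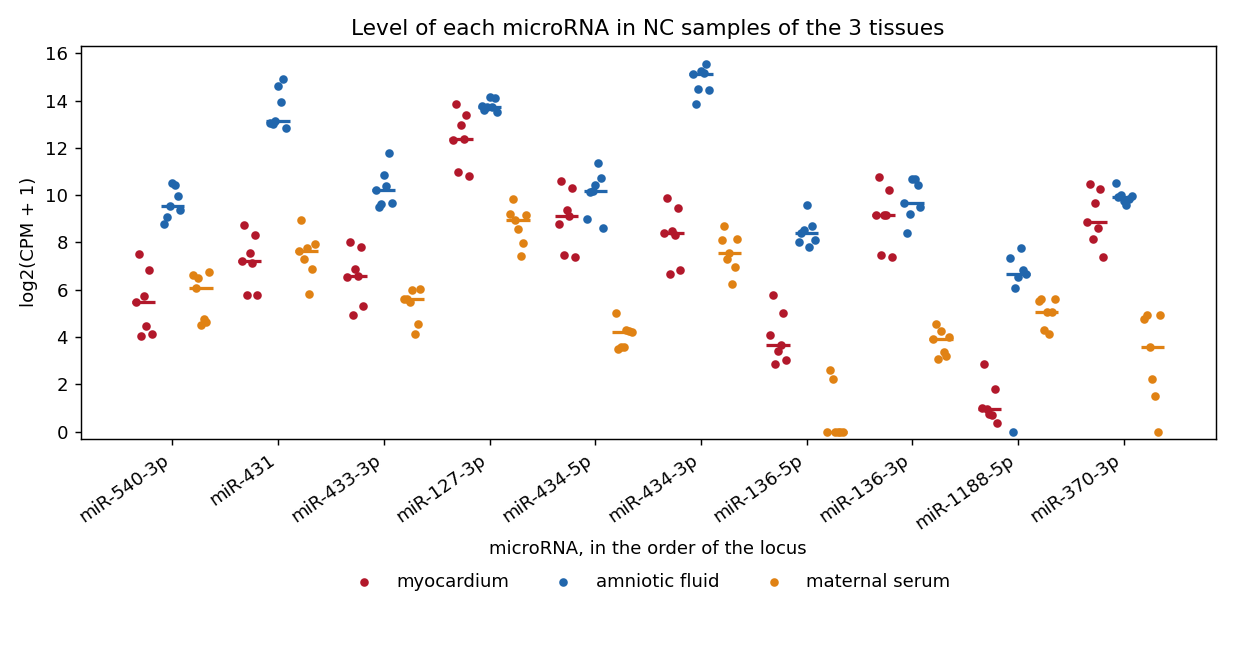
Level of the 10 microRNAs in the 7 NC samples of each tissue, as log2(CPM + 1) with counts divided by the library total. Points are samples and lines are medians. miR-127-3p leads in myocardium and maternal serum, and miR-434-3p in amniotic fluid.

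miR-127-3p, which lies antisense to the Rtl1 coding sequence, made up 70.9% of the members' counts in NC myocardium (median of 7, range 68.2 to 74.3%). Its level there was 1768 to 14679 CPM (median 5297), above the ranges of all other members. It was followed by miR-136-3p (median 574 CPM), miR-434-5p (546), miR-370-3p (460), miR-434-3p (335), miR-431 (147), miR-433-3p (95.1), miR-540-3p (44.0), miR-136-5p (11.7) and miR-1188-5p (0.946), and each neighbour in this order overlapped the next.
In NC amniotic fluid the order began with miR-434-3p (median 35815 CPM, range 14769 to 47343), miR-127-3p (13653, range 11674 to 18421) and miR-431 (8956, range 7421 to 30439), whose ranges overlapped. The other members had medians of 101 to 1176 CPM and none reached the range of miR-431. miR-434-3p made up 45.9% of the members' counts, miR-127-3p 21.9% and miR-431 20.7% (medians of 7).
In NC maternal serum miR-127-3p (median 490 CPM) stood before miR-431 (198), miR-434-3p (186), miR-540-3p (65.4), miR-433-3p (47.6), miR-1188-5p (32.8), miR-434-5p (17.8), miR-136-3p (13.9) and miR-370-3p (11.05), and neighbours overlapped throughout. miR-136-5p had counts in 2 of the 7 NC and 1 of the 7 VSD serum samples, 6 counts in all.

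The arms of miR-434 changed places between the tissues. In NC myocardium the 5p arm had 1.29, 1.73 and 1.88 counts for each count of the 3p arm (lowest, median and highest of 7). The ratio was 0.0143, 0.0353 and 0.0764 in NC amniotic fluid and 0.0292, 0.0909 and 0.262 in NC maternal serum. No sample of either fluid reached the range of myocardium. Myocardium and serum had the same library kit and sequencer but not the same RNA kit, and only myocardium was embedded in paraffin. miR-136 favoured the 3p arm in NC myocardium, with 0.0172, 0.0282 and 0.0434 5p counts for each 3p count, and did so less in NC amniotic fluid, where the ratio was 0.139, 0.390 and 1. For this hairpin the ranges did not overlap among NC samples. The highest myocardium ratios of the VSD and non-VSD groups, 0.145 and 0.143, lay inside the amniotic fluid range.

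In myocardium, the first question was whether the group moved with DMO or with the defect. DE-microRNAs are those that differed 2-fold or more in either direction with p below 0.05 before adjustment, in edgeR's quasi-likelihood test. Counts were scaled by TMM, which sets library factors so that the bulk of microRNAs stays level. Group values from here on are TMM-scaled CPM. In the VSD group against the NC group 1 of 10 members passed, where 6.82% of the 469 microRNAs tested did (12 higher and 20 lower). In the non-VSD group 2 of 9 passed, where 4.17% of 456 did (8 higher and 11 lower). Scaled by library size only, the splits were 33 to 12 and 16 to 4, and the median log2 change of all microRNAs moved from -0.05 to 0.32 and from -0.07 to 0.13. At an unadjusted p alone these counts were 1 and 2, against 19.2% and 17.5% of all tested. At a Benjamini-Hochberg adjusted p under 0.05 edgeR, DESeq2 and limma each called 0 members in both comparisons, where edgeR called 0.426% and 0.219% of all tested. limma was run on log2(CPM + 1) without TMM factors. DESeq2 and limma called 1 and 1 member at an unadjusted p in the VSD group, and 2 and 1 in the non-VSD group. Over all microRNAs tested they called 112 and 150 of 469 unadjusted in VSD, and 94 and 89 of 456 in non-VSD. At an adjusted p under 0.05 they called 46 and 48 in VSD, and 47 and 27 in non-VSD.

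The members that passed were the arms of miR-136. miR-136-5p was at 8.86, 14.7 and 43.3 CPM in the NC group (lowest, median and highest of 7), at 8.86, 48.7 and 61.4 CPM in the non-VSD group and at 12.6, 44.5 and 65.6 CPM in the VSD group. In each DMO group 6 of 7 samples lay above the NC median, and the groups overlapped. Its log2 fold change was 1.02 ± 0.42 (SE) in VSD (p = 0.029, edgeR adjusted p = 0.197, exact permutation p = 0.0425) and 1.02 ± 0.44 in non-VSD (p = 0.034, adjusted p = 0.225, exact permutation p = 0.0711). The VSD call was lost without any one of 10 of the 14 samples (NC 1, 3, 4, 5 and 7, and VSD 1 to 5), where the log2 change was 0.81 to 0.999, and the non-VSD call without any one of 10 (NC 1, 3, 4, 5 and 7, and non-VSD 3 to 7), where it was 0.88 to 0.996. Without NC 2, which stands apart in muscle markers, it was 1.32 and 1.35.

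miR-136-3p, the abundant arm of the same hairpin, went the other way. It was at 208, 716 and 1407 CPM in the NC group, at 77.1, 386 and 480.2 CPM in the non-VSD group and at 314, 480.2 and 607 CPM in the VSD group. All 7 samples of each DMO group lay under the NC median, while the ranges overlapped. It was downregulated at the threshold in non-VSD (log2 change -1.16 ± 0.46, p = 0.0223, edgeR adjusted p = 0.176, exact permutation p = 0.0565) and was at -0.70 ± 0.36 in VSD (edgeR p = 0.071; -0.03 with limma on log2(CPM + 1)). The non-VSD call was lost without NC 2 (log2 change -0.92) or without non-VSD 1 (-0.99), the sample with the lowest level. The call of miR-136-3p was also lost with limma or with library size only, and the non-VSD call of miR-136-5p with DESeq2, library size only, no filter or all 3 groups in one fit, so that 0 or 1 of the 2 calls remained. Red blood cell markers moved with these groups: all 4 were lower in both, 4 as DE-microRNAs in VSD and 3 in non-VSD, and their sum ran from 2651 to 91137 CPM in NC, from 3255 to 33986 CPM in non-VSD and from 3435 to 25159 CPM in VSD. Of the 4 white blood cell markers 3 were lower in both groups, 2 as DE-microRNAs in VSD and 1 in non-VSD, and their sum was 426 to 3758 CPM in NC, 378 to 2033 CPM in non-VSD and 278 to 1142 CPM in VSD. Of the 7 muscle markers 6 were lower in VSD and 4 in non-VSD, 1 of them as a DE-microRNA in each. The 8 epithelial microRNAs were all higher in VSD and all lower in non-VSD, with 0 DE-microRNAs by edgeR (0 at an unadjusted p under 0.05). Of 2 endothelial markers 2 were higher in VSD and 1 in non-VSD, with 0 DE-microRNAs in either. The 1 higher in non-VSD had an unadjusted edgeR p under 0.05. Their sum was 11476 to 23907 CPM in NC, 20266 to 31237 CPM in non-VSD and 14971 to 22038 CPM in VSD. The part of these lists in the miR-136 changes was not tested.

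**Figure D2:**
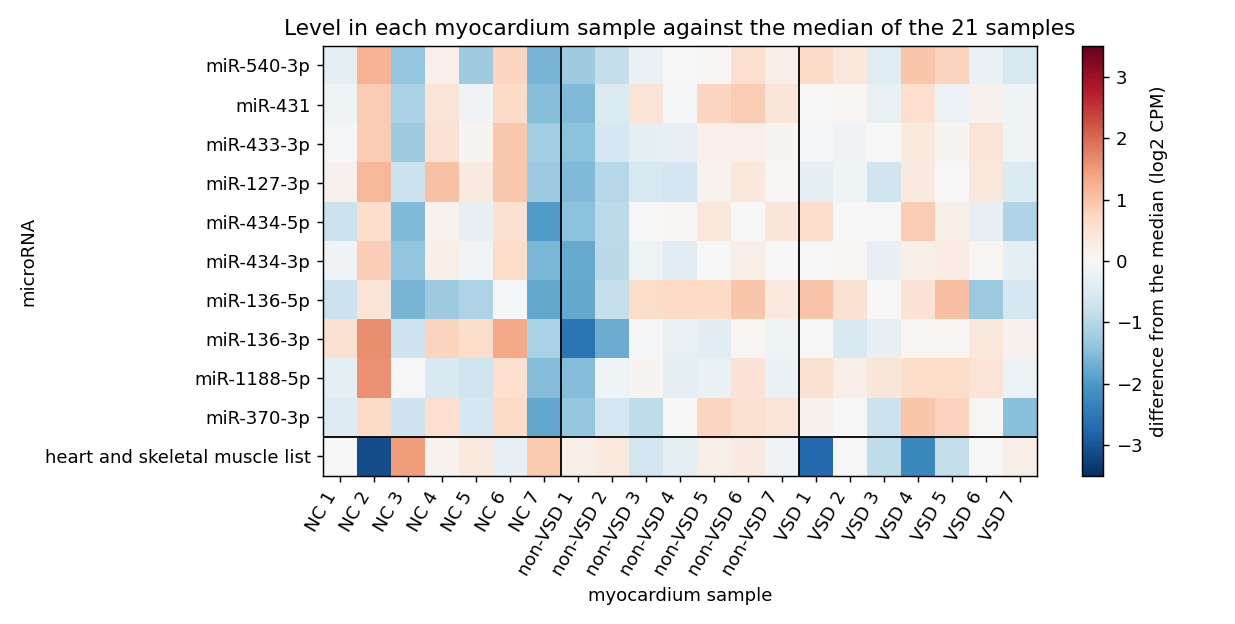
Difference of each microRNA's log2 CPM from its median over the 21 myocardium samples, ordered by group, with the summed heart and skeletal muscle list in the last line. Most microRNAs are high in NC 2 and NC 6 and low in NC 3, NC 7 and non-VSD 1, while miR-136-5p is low in most NC samples and high in most DMO samples.

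Since both arms are cut from 1 hairpin, their ratio within a sample does not depend on library scaling. In the NC group the miR-136 5p/3p ratio was 0.0172, 0.0282 and 0.0434, in the non-VSD group 0.0986, 0.128 and 0.143, and in the VSD group 0.0209, 0.0924 and 0.145. All 7 non-VSD samples lay above all 7 NC samples. In the VSD group 5 samples lay above the NC range, and VSD 6 (0.0209) and VSD 7 (0.0398) lay inside it. On the log2 scale the difference was 2.13 in non-VSD (exact permutation p = 0.000583, the smallest that 3432 groupings allow; adjusted p = 0.0153 over 158 hairpins) and 1.49 in VSD (exact permutation p = 0.00932, adjusted p = 0.105). Both differences ranked first among the 158 hairpins with both arms measured, where the median difference was 0.01 and 0.08. At an adjusted p under 0.05 the ratio was called for 9.49% of hairpins in non-VSD and for 0% in VSD, and 3.80% of hairpins had non-overlapping groups in non-VSD. Without VSD 6, the VSD sample with the lowest ratio, the VSD difference was 1.805 (exact permutation p = 0.00117, adjusted p = 0.0307). This was the only sample of 14 whose omission brought the adjusted p under 0.05. Without NC 2, VSD 1 or VSD 4, the samples low in muscle markers, the VSD difference was 1.51, 1.35 and 1.45, and without NC 2 the non-VSD difference was 2.15.

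The miR-434 arms gave a smaller difference in the same direction. The 5p/3p ratio was 1.29, 1.73 and 1.88 in NC, 1.67, 2.46 and 2.75 in non-VSD and 1.18, 1.90 and 3.11 in VSD. The non-VSD samples lay above the NC range apart from non-VSD 6 (1.67), while the VSD samples spread over both sides of it. The log2 difference was 0.48 in non-VSD (exact permutation p = 0.0035, adjusted p = 0.0368) and 0.30 in VSD (exact permutation p = 0.168, adjusted p = 0.396). The non-VSD call was lost without any one of 11 of the 14 samples (all but NC 3, non-VSD 1 and non-VSD 6), at log2 differences of 0.42 to 0.51. Between VSD and non-VSD neither hairpin differed past the threshold (log2 differences -0.64 and -0.18, exact permutation p = 0.159 and 0.415). Other hairpins called in non-VSD included miR-140, miR-376b, miR-542 and miR-674 with relatively more 5p arm, and miR-450a and miR-340 with less.

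**Figure D3:**
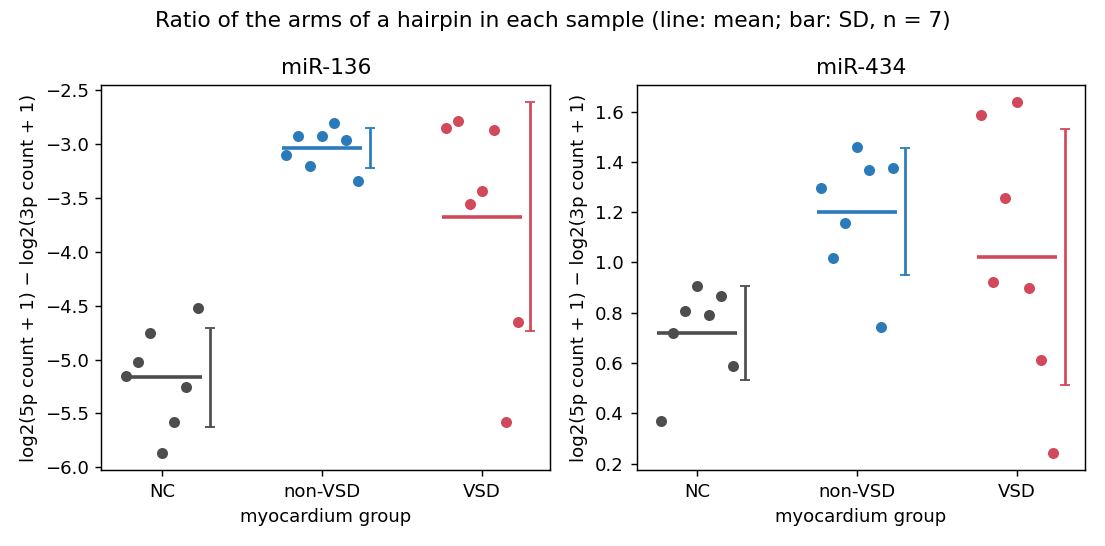
Ratio of the arms of miR-136 and miR-434 in each myocardium sample, as log2(5p count + 1) minus log2(3p count + 1). Lines are means and bars SD of 7 samples. All 7 non-VSD samples and 5 of 7 VSD samples lie above the NC range for miR-136.

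The other 8 members did not pass in myocardium. miR-127-3p was at 2205, 6675 and 11919 CPM in NC, at 1816, 3601 and 6956 CPM in non-VSD and at 3274, 4791 and 7037 CPM in VSD. The DMO groups lay largely inside the wide NC range, and the log2 change was -0.77 ± 0.39 in non-VSD (edgeR p = 0.0643, exact permutation p = 0.136) and -0.54 ± 0.34 in VSD (edgeR p = 0.131). limma on log2(CPM + 1), without TMM factors, gave 0.06 for the latter, where its median over all microRNAs tested was 0.40. The log2 changes of miR-540-3p, miR-431, miR-433-3p, miR-434-5p, miR-434-3p and miR-370-3p were between -0.41 and 0.35 over both comparisons. miR-1188-5p was near the detection limit of myocardium, with 2 to 59 counts in NC samples and 2 to 16 in non-VSD samples, and passed the low-count filter only in comparisons with the VSD group. Over the members tested the median log2 change was 0.07 in VSD and -0.12 in non-VSD, beside -0.05 and -0.07 over all microRNAs tested.

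Between the VSD and non-VSD groups 0 of 10 members were DE-microRNAs, where 5.18% of 483 microRNAs were. edgeR, DESeq2 and limma gave 0 members at an unadjusted p under 0.05 (11.6% of all tested by edgeR, 69 and 59 of 483 by DESeq2 and limma). They also gave 0 members at an adjusted p under 0.05 (0% of all tested by each). miR-136-5p was at 0.03 ± 0.43 and miR-136-3p at 0.50 ± 0.39 on the log2 scale. The members lay between -0.19 and 0.70, 9 of 10 of them above 0, with a median of 0.29 beside 0.02 over all tested. In the same comparison the 8 epithelial microRNAs were all higher, 2 of them as DE-microRNAs (median 1.61), the 7 muscle markers were all lower with 0 DE-microRNAs by edgeR (0 at an unadjusted p under 0.05), and 53 of 56 microRNAs of the miR-379 to miR-410 cluster were higher (median 0.44). Of all 483 tested, 248 were higher. Of 2 endothelial markers 1 was higher and 1 lower, the latter at an unadjusted edgeR p under 0.05. The part of these cell markers in the members' values was not tested. The top of the members' range was miR-1188-5p (edgeR p = 0.132), of which all 7 VSD samples, at 1.27 to 2.53 CPM, lay above the non-VSD median (exact permutation p = 0.014 unadjusted). It had 4 to 30 counts in a VSD sample and 2 to 16 in a non-VSD sample. It passed the low-count filter only with the VSD group, where it is highest, so no conclusion is drawn from this p. In a bulk sample, fewer cells of a type and less RNA per cell cannot be told apart.

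The members varied together across the myocardium samples. Over 21 samples the median Spearman rho of the 45 pairs was 0.70, from 0.94 for miR-433-3p and miR-127-3p down to 0.11 for the arms of miR-136. The mean log2 CPM of the 10 ranged from 5.99 (NC 7) to 8.53 (NC 2) within the NC group, from 5.91 to 7.96 in non-VSD and from 7.05 to 8.09 in VSD. The summed muscle list moved against it: NC 2 had 4231 CPM of muscle markers and NC 3 and NC 7 had 99097 and 68543 CPM. Over the 21 samples Pearson's r between the log2 of the muscle sum and the members' mean was -0.64 (permutation p = 0.0029) and Spearman's rho was -0.62 (permutation p = 0.00298), a relation computed once and chosen after the values were seen. r was -0.59 without the 2 samples farthest from the median muscle level. Within the groups of 7, r was -0.81 in NC, -0.68 in VSD and -0.22 in non-VSD, and rho was -0.93, -0.61 and 0.11. The relation was thus not seen by rank in non-VSD. There non-VSD 1 and non-VSD 6 had members' means of 5.91 and 7.96 at 41897 and 44808 CPM of muscle markers. The part of muscle content in the changes of miR-136 was not tested.
By rank correlation with the members' mean over these 21 samples, the 3 most alike of 353 other microRNAs were miR-379-3p (rho 0.96, r 0.94), miR-134-5p (rho 0.94, r 0.95) and miR-382-5p (rho 0.93, r 0.93), all of the miR-379 to miR-410 cluster.

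In amniotic fluid 1 of 10 members was a DE-microRNA in VSD against NC, where 6.94% of 245 microRNAs were, and 1 of 10 in non-VSD against NC, where 12.4% of 242 were. The unadjusted p was under 0.05 for 3 members in VSD (13.5% of all tested) and for 2 in non-VSD (19.4%). At an adjusted p under 0.05 edgeR, DESeq2 and limma each gave 0 members (edgeR 0% of all tested in VSD and 4.96% in non-VSD). DESeq2 and limma gave 3 and 2 members at an unadjusted p in VSD, and 2 and 0 in non-VSD. Over all microRNAs tested they gave 38 and 22 of 245 unadjusted in VSD, and 52 and 45 of 242 in non-VSD. At an adjusted p under 0.05 they gave 0 and 1 in VSD, and 29 and 4 in non-VSD.

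miR-136-3p was downregulated in the VSD group. It was at 328, 759 and 1775 CPM in NC (lowest, median and highest of 7) and at 171, 444 and 756 CPM in VSD. All 7 VSD samples lay under the NC median and the ranges overlapped. The log2 change was -1.16 ± 0.41 (p = 0.0113, edgeR adjusted p = 0.231, exact permutation p = 0.0286), and it was -0.97 and -0.98, short of the threshold, without NC 5 or VSD 3. In non-VSD it was at 0, 415 and 1034 CPM, with a log2 change of -0.78 ± 0.62 (edgeR p = 0.223, exact permutation p = 0.114). The level rested on 28 to 409 counts in an NC sample and 37 to 151 in a VSD sample.

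miR-434-3p, the most abundant member here, was at 14253, 33808 and 50386 CPM in NC and at 12342, 19189 and 26911 CPM in VSD. All 7 VSD samples lay under the NC median. Its log2 change of -0.71 ± 0.29 had p = 0.0262 (edgeR adjusted p = 0.251, exact permutation p = 0.0385) but did not reach a 2-fold difference, and in non-VSD it was -0.58 ± 0.33 (edgeR p = 0.0945). The 5p arm was at -0.81 ± 0.40 in VSD (edgeR p = 0.0609, exact permutation p = 0.169). Neither the miR-434 nor the miR-136 arm ratio differed past the threshold in amniotic fluid (log2 differences 0.04 to 1.31 against NC, exact permutation p from 0.127 to 0.929).

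miR-370-3p, whose hairpin is the last of the group, was higher in both DMO groups without reaching 2-fold. It was at 833, 936 and 1385 CPM in NC, at 598, 1667 and 2328 CPM in non-VSD and at 1037, 1386 and 3545 CPM in VSD. All 7 VSD and 6 of 7 non-VSD samples lay above the NC median. The log2 change was 0.87 ± 0.30 in VSD (p = 0.0101, edgeR adjusted p = 0.231, exact permutation p = 0.00932) and 0.68 ± 0.30 in non-VSD (p = 0.0384, exact permutation p = 0.0886).

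miR-540-3p, whose hairpin opens the group, was the member that differed between the DMO groups. It was at 417, 739 and 1501 CPM in NC, at 609, 1733 and 4346 CPM in non-VSD and at 148, 701 and 1530 CPM in VSD. It was upregulated in non-VSD against NC (log2 change 1.07 ± 0.42, p = 0.019, edgeR adjusted p = 0.135, exact permutation p = 0.081) and was at -0.22 ± 0.43 in VSD. VSD against non-VSD gave -1.25 ± 0.46 (p = 0.0112, edgeR adjusted p = 0.206, exact permutation p = 0.0402), with all 7 VSD samples under the non-VSD median. It was the only member of 10 called in that comparison, where 3.30% of 273 microRNAs were DE-microRNAs, 10.6% had an unadjusted p under 0.05 and 0% an adjusted one. Non-VSD 6, at 4346 CPM, decided both calls: without it the log2 changes were 0.67 and -0.87. The first was also lost without NC 1 (0.89), NC 2 (0.91), NC 7 (0.98) or non-VSD 7 (0.96), and with limma (0.91) or all 3 groups in one fit (0.99).

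**Figure D4:**
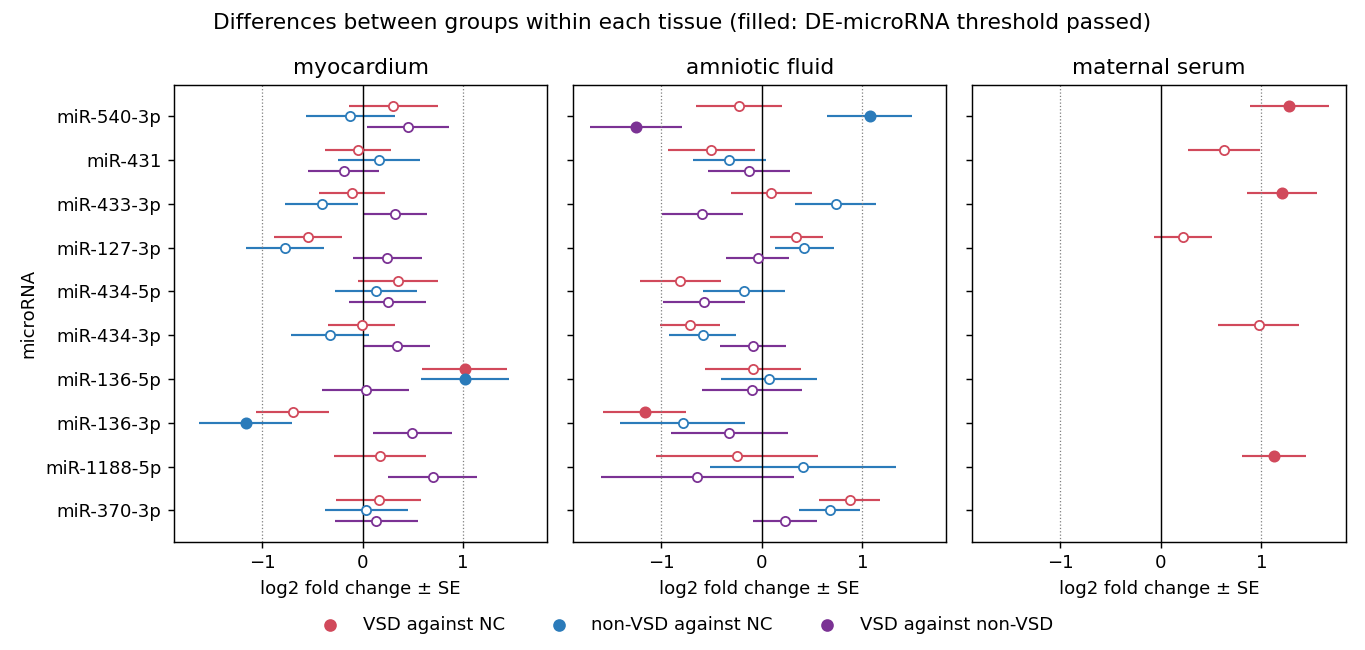
log2 fold change with its SE for each member and comparison by edgeR's quasi-likelihood test, in 3 panels by tissue. Filled points met the DE-microRNA threshold, and dotted lines mark a 2-fold difference. Points in maternal serum all lie above 0, while those in the other tissues fall on both sides.

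The other members of amniotic fluid did not pass. miR-433-3p was at 0.73 ± 0.40 on the log2 scale in non-VSD (edgeR p = 0.085, exact permutation p = 0.122; 1.07 and past the threshold without NC 6) and miR-127-3p at 0.35 ± 0.27 in VSD and 0.42 ± 0.29 in non-VSD. The changes of miR-431, miR-136-5p and miR-1188-5p against NC, of miR-433-3p in VSD and of miR-434-5p in non-VSD lay between -0.50 and 0.41 on the log2 scale. miR-1188-5p had 0 counts in 1 sample of each group and at most 74 counts. The median log2 change of the 10 members was -0.24 in VSD and 0.24 in non-VSD, beside -0.06 and 0.11 over all tested. Red blood cell markers moved with the groups here: their 4 microRNAs were all higher in both DMO groups, 2 in VSD and 4 in non-VSD as DE-microRNAs. Their sum ran from 15088 to 34906 CPM in NC, from 18171 to 143900 CPM in VSD and from 25498 to 86339 CPM in non-VSD, and their part in these results was not tested. The liver marker miR-122-5p met the threshold upward in VSD against NC (log2 change 2.998) and against non-VSD (2.31), with VSD 4 at 40837 CPM against an NC range of 360 to 1635 CPM. Its median was not higher in VSD (892 CPM) than in NC (970 CPM) or non-VSD (972 CPM). Of 3 white blood cell markers tested, 1 was upregulated in each DMO group, and of 2 endothelial markers 1 was upregulated in non-VSD, at an adjusted p under 0.05 by edgeR. The 3 muscle markers tested were all higher in VSD (median 2.15), with 0 DE-microRNAs by edgeR (0 at an unadjusted p under 0.05). The part of these lists was not tested either. No call of a member changed without VSD 4, the sample that stood apart in muscle markers. Over the 21 samples the members' mean was most like miR-409b (rho 0.77, r 0.85), miR-143-3p (rho 0.68, r 0.71) and miR-541-5p (rho 0.64, r 0.72) of 151 candidates, and the median rho between pairs of members was 0.32.

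In maternal serum, all 6 members that passed the low-count filter were higher in the VSD group, and 3 of them were DE-microRNAs. VSD serum came from dams given DMO and NC serum from dams given water. Without a non-VSD serum group, the drug given to the dam and the defect of the fetus cannot be told apart here. Of the 219 microRNAs tested 104 were higher, and 4.57% were DE-microRNAs, 10 in all and each of them upregulated. An unadjusted p under 0.05 was found for 4 of the 6 members and for 13.7% of all tested. At an adjusted p under 0.05 edgeR called 0 members and 0% of all tested, limma called 0 members (3 unadjusted) and DESeq2 called 2 (4 unadjusted), miR-433-3p and miR-1188-5p, both with an adjusted p of 0.0471. Over all 219 tested, limma called 0 (23 unadjusted) and DESeq2 called 4 (34 unadjusted). A member that passes a low-count filter because it is high in 1 group had more room to differ, so the 4 members under the filter are given too.

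miR-540-3p was at 20.2, 63.5 and 109.7 CPM in NC serum (lowest, median and highest of 7) and at 96.4, 109.6 and 280.4 CPM in VSD serum. All 7 VSD samples lay above the NC median. Its log2 change was 1.28 ± 0.39 (p = 0.00395, edgeR adjusted p = 0.173, exact permutation p = 0.00699), and it remained a DE-microRNA without any one sample.
miR-433-3p was at 21.2, 46.8 and 67.1 CPM in NC and at 32.1, 96.1 and 192 CPM in VSD, where 6 of 7 samples lay above the NC median. The log2 change was 1.21 ± 0.35 (p = 0.00275, edgeR adjusted p = 0.15, exact permutation p = 0.0117).
miR-1188-5p was at 17.5, 30.9 and 48.8 CPM in NC and at 40.7, 71.4 and 145 CPM in VSD, where all 7 lay above the NC median. The log2 change was 1.13 ± 0.32 (p = 0.00227, edgeR adjusted p = 0.15, exact permutation p = 0.00408). VSD 2 held the highest level of each of these 3 microRNAs among the 14 samples. Without it miR-433-3p (log2 change 0.998) and miR-1188-5p (0.93) fell just short of 2-fold. miR-1188-5p also did so without NC 3 (0.96) or VSD 7 (0.999).

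miR-434-3p was at 97.7, 172 and 399 CPM in NC and at 172, 299 and 1101 CPM in VSD. Every VSD sample exceeded the median of NC, and VSD 2 stood far above the rest. The log2 change of 0.97 ± 0.40 (p = 0.0265, edgeR adjusted p = 0.291, exact permutation p = 0.0734) was 0.56 without VSD 2, and it passed 2-fold without NC 1, NC 2, NC 7, VSD 5 or VSD 6 (1.04 to 1.12). miR-431 was at 0.63 ± 0.36 (edgeR p = 0.0948). miR-127-3p, the most abundant member in serum, was at 224, 466 and 899 CPM in NC and at 391, 589 and 711 CPM in VSD, a log2 change of 0.22 ± 0.29 (edgeR p = 0.452; 95% interval -0.34 to 0.78). This difference was within the spread between samples.
The median log2 change over the 6 members was 1.05, beside -0.03 over all tested. The 4 members under the filter had few counts: miR-136-3p had 41 in the 7 NC and 65 in the 7 smaller VSD libraries, miR-434-5p 53 and 46, miR-370-3p 45 and 83, and miR-136-5p 4 and 2. Fitted without the filter and scaled for library size, their log2 changes were 1.23 ± 0.46, 0.40 ± 0.47, 1.48 ± 0.58 and -0.23 ± 1.01. The members tested had 5 to 538 counts in an NC sample. The red blood cell, white blood cell, epithelial, liver and endothelial lists had medians between -0.54 and 0.15, and the muscle list -0.50. Of 4 muscle markers tested 3 were lower, and 1 was higher as a DE-microRNA. Of 2 red blood cell markers tested 2 were lower, 1 of them at an unadjusted edgeR p under 0.05. The other lists had 0 microRNAs at such a p. The part of these lists in the members' values was not tested.

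**Figure D5:**
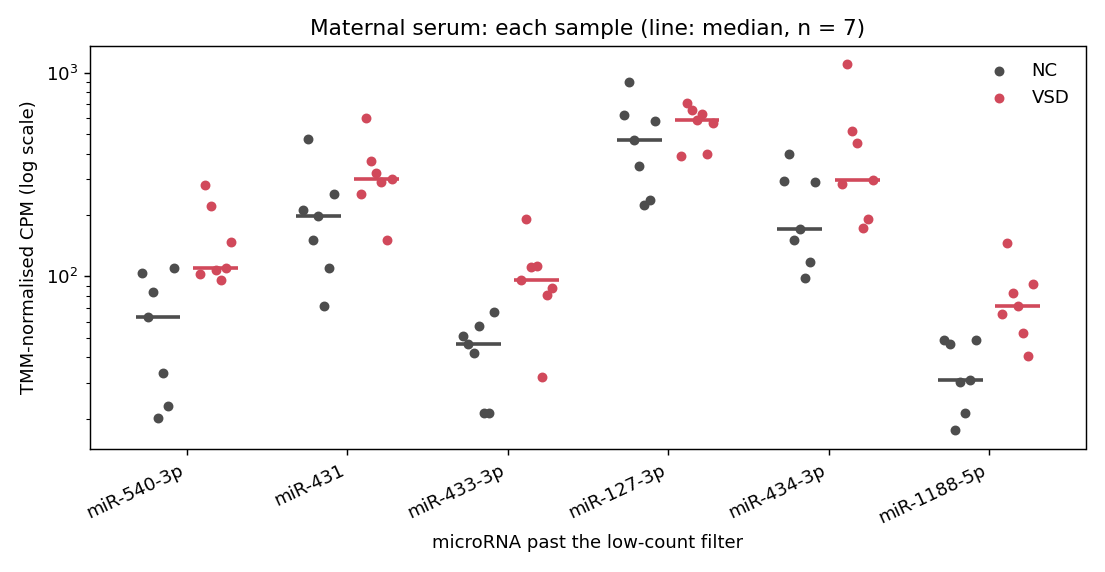
TMM-normalised CPM, on a log scale, of the 6 members past the low-count filter in each maternal serum sample, with the median of 7 as a line. All 7 VSD samples lie above the NC median for miR-540-3p, miR-434-3p and miR-1188-5p, and VSD 2 is the highest VSD sample for all 6.

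The 14 serum samples also varied together in these microRNAs. The median rho between the 15 pairs of members was 0.78, and the mean of the 6 was most like miR-382-5p (rho 0.88, r 0.95), miR-485-3p (rho 0.87, r 0.92) and miR-409a-3p (rho 0.86, r 0.95), all of the miR-379 to miR-410 cluster, out of 135 candidates.

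The changes in VSD against NC were compared between tissues by permuting labels within each tissue (100000 permutations). Between amniotic fluid and maternal serum the difference had an unadjusted p under 0.05 for 3 of 6 members, where 12.1% of 173 microRNAs did. miR-434-3p changed by -0.68 in amniotic fluid and 0.86 in serum (permutation p = 0.00618, adjusted p = 0.26). miR-540-3p changed by -0.35 and 1.33 (permutation p = 0.0146, adjusted p = 0.282) and miR-431 by -0.51 and 0.74 (permutation p = 0.0467, adjusted p = 0.388). Between myocardium and amniotic fluid 1 of 10 members passed unadjusted, miR-136-5p with 1.04 and -0.28 (permutation p = 0.0466, adjusted p = 0.204), where 23.7% of 236 microRNAs did. Between myocardium and serum 0 of 6 passed, where 15.6% of 212 did. For non-VSD against NC 0 of 9 passed between myocardium and amniotic fluid, where 15.9% of 232 did. After adjustment 0 of the 31 member differences passed.

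The rest of the Dlk1-Dio3 region was read from lists that hold the other microRNAs before miR-379 and the miR-379 to miR-410 cluster. In maternal serum 10 of 10 tested microRNAs of the cluster were higher in VSD, and 3 were DE-microRNAs: miR-494-3p (log2 change 1.33 ± 0.45), miR-134-5p (1.17 ± 0.41) and miR-541-5p (1.001 ± 0.33). The median of the cluster was 0.84, and the members and the cluster together gave 6 of the 10 DE-microRNAs of serum. Of all 219 microRNAs tested in serum, 104 were higher and 4.57% were DE-microRNAs. In amniotic fluid 21 of 28 tested cluster microRNAs were lower in VSD, with 4 DE-microRNAs, all downregulated: miR-299a-5p (-2.50 ± 1.03), miR-376b-3p (-1.99 ± 0.80), miR-300-3p (-1.41 ± 0.48) and miR-369-3p (-1.21 ± 0.32). Of all 245 tested there, 127 were lower and 6.94% were DE-microRNAs. In non-VSD amniotic fluid the cluster was split, with 13 higher and 13 lower and 0 DE-microRNAs (2 at an unadjusted p under 0.05). Of all 242 tested, 134 were higher, 12.4% were DE-microRNAs and 19.4% had such a p. In myocardium 33 of 54 tested cluster microRNAs were higher in VSD, with 1 DE-microRNA, miR-376a-3p (1.12 ± 0.43), and 40 of 52 were lower in non-VSD, with 0 DE-microRNAs by edgeR (0 at an unadjusted p). Of all microRNAs tested, 219 of 469 were higher in VSD and 6.82% were DE-microRNAs. In non-VSD 258 of 456 were lower, 4.17% were DE-microRNAs and 17.5% had an unadjusted p under 0.05. In VSD against non-VSD myocardium 53 of 56 cluster microRNAs were higher, 3 of them DE-microRNAs, miR-329-5p, miR-494-3p and miR-539-3p, at 1.03 to 1.13. Of all 483 tested, 248 were higher and 5.18% were DE-microRNAs. In amniotic fluid 13 of 33 were higher in this comparison, and 1 was a DE-microRNA, the downregulated miR-369-3p (-1.54 ± 0.38). There 131 of all 273 tested were higher and 3.30% were DE-microRNAs. Of the other microRNAs before miR-379, only miR-665 was a DE-microRNA, in amniotic fluid of both DMO groups (1.16 ± 0.48 in VSD and 1.01 ± 0.41 in non-VSD, 1 of 6 tested in each). No microRNA of either list passed an adjusted p under 0.05.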

How the data were processed

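The authors converted the reads with bcl2fastq 2.19, filtered them with the FASTX-Toolkit and deposited reads counted per mature microRNA, per the labels. The aligner, microRNA annotation, genome build, and whether molecular identifiers were counted in amniotic fluid, are not given in the sources used here. Only these deposited counts were used. The authors' normalised signal (myocardium, serum), CPM (amniotic fluid), rounded group means of CPM (handled as a score), and comparison columns (log2 value, fold ratio and p-value) were deposited beside them and not used. All columns of counts matched a sample. Both amniotic fluid tables were joined by microRNA; 477 names were in both, and a name absent from 1 table had 0 NC counts and was set to 0.

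The members, lists and tests were chosen with earlier results of these data known. Fold changes are named for members with an unadjusted p under 0.1, miR-127-3p and the arms of miR-136. Counts were filtered by filterByExpr (minimum count 10, minimum total 15), scaled by TMM and tested by edgeR 4.0.16's quasi-likelihood test in R 4.3.3, with Benjamini-Hochberg adjustment over all microRNAs tested. Each DMO group was fitted with NC, and VSD against non-VSD in a fit of all 3 groups. log2 CPM used a prior count of 2, and arm ratios 1 added count. For single values, two-sided permutation tests enumerated all groupings. Levels between tissues used CPM by library total, for microRNAs with at least 10 counts in 7 samples. Likeness used microRNAs with a mean count of at least 50. Results were recomputed without TMM, without the filter, with other groups fitted together, with replicate numbers as blocks, with other pseudocounts, with each sample left out in turn, and with limma 3.58.1 (on log2(CPM + 1)) and DESeq2 1.42.0. limma took CPM without TMM factors. Procedures were tested on simulated data. No pair of samples of a group agreed within sampling noise.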

Additional observations from a re-analysis of the deposited data

Results flagged for a closer look

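Among 94 groups of 7 values, 9 had a sample far from the rest by Dixon's criterion, where chance gives about 1 in 20 for normally distributed values. CPM need not be so distributed, and each of the 9 was the highest value of its group. No conclusion is drawn from their number. In myocardium these were miR-1188-5p in NC 2 (5.11 CPM) and miR-431 in VSD 4 (283 CPM), 2 of the samples low in muscle markers. In amniotic fluid they were miR-433-3p in NC 6 (3791 CPM), miR-136-5p in NC 4 (789 CPM), miR-370-3p in NC 1 (1385 CPM), and miR-540-3p (4346 CPM) and miR-127-3p (41289 CPM) in non-VSD 6. In maternal serum they were miR-434-3p (1101 CPM) and miR-136-5p (10.4 CPM, from 2 counts) in VSD 2. Non-VSD 6 of amniotic fluid and VSD 2 of serum decide calls of miR-540-3p and of miR-433-3p and miR-1188-5p, as given with those results.

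The change in VSD differed between tissues at an unadjusted permutation p under 0.05 for miR-136-5p (1.32 on the log2 scale, myocardium minus amniotic fluid), and for miR-434-3p (-1.54), miR-540-3p (-1.67) and miR-431 (-1.25), amniotic fluid minus maternal serum. All adjusted p were at least 0.204. For miR-434-3p all 7 VSD samples lay under the NC median in amniotic fluid and above it in serum.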

How the results depend on the processing

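No adjusted p of a member passed 0.05 in edgeR, so each call rests on an unadjusted p and the 2-fold limit. The VSD calls in myocardium, amniotic fluid and serum, and VSD against non-VSD, kept their number of members (within 1.5 times) under each alternative but those given here. In non-VSD myocardium the count of 2 became 1 with DESeq2, limma, no filter or all 3 groups in one fit, and 0 with library size only. With the replicate number as a block it became 0, and in non-VSD amniotic fluid the count of 1 became 0 in that block; same-numbered samples did not deviate together (0 to 5 of 7 correlations over 0.1 in each comparison), so the numbers did not pair the samples. That count was also 0 with limma or all 3 groups in one fit, and the VSD amniotic fluid count 0 with all 3 groups. Without the filter the serum count was 5, adding miR-136-3p (1.23) and miR-370-3p (1.48). TMM over both tissues left 3 members of amniotic fluid apart from myocardium, and library size only gave 3 members whose change differed between these tissues at an unadjusted p.

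With each sample left out in turn, members called ranged over 0 to 1 (VSD myocardium), 1 to 2 (non-VSD myocardium), 0 to 1 (VSD amniotic fluid and VSD against non-VSD there), 0 to 2 (non-VSD amniotic fluid) and 1 to 4 (serum). The miR-136 arm difference ranged from 1.34 to 1.805 (VSD myocardium) and from -0.90 to 0.0842 (VSD against non-VSD, amniotic fluid), and that of miR-434 from 0.42 to 0.56 (non-VSD myocardium) and from -0.19 to 0.21 (VSD, amniotic fluid). 
Some changes, none of them called, turned sign. miR-127-3p went from -0.54 to 0.0558 with limma (VSD myocardium) and became 0.0267 in the block (VSD against non-VSD, amniotic fluid; -0.15 to 0.29 with a sample left out). miR-136-5p against non-VSD in myocardium became -0.0373 in the block and -0.00798 with the 2 groups alone (-0.13 to 0.21). In amniotic fluid non-VSD it became -0.0971 with limma, -0.0694 in the block and -0.0223 with all 3 groups (-0.29 to 0.29); left out in turn it ran from -0.44 to 0.20 in VSD and from -0.46 to 0.24 against non-VSD. miR-136-3p against non-VSD there went from -0.32 to 0.74 with limma. Of 33 further fold changes, 18 turned sign somewhere, none above 0.41 (log2) in size. The causes were not tested. The alternatives for the miR-136 and miR-434 arm ratios in serum were not run, since their 5p arms were under the filter. Over all microRNAs, DESeq2 gave more adjusted calls than edgeR: 46 against 2 and 47 against 1 in VSD and non-VSD myocardium, 29 against 12 in non-VSD amniotic fluid, 6 against 0 in VSD against non-VSD there and 4 against 0 in serum.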
